A study of Mus musculus with 6 samples.

Results

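The genes described here are the mitochondrial carriers of solute carrier family 25 and the uncoupling proteins, taken from the count table as protein-coding rows named Slc25a with a number, or Ucp1, Ucp2 and Ucp3. Slc25a1, Slc25a3 and Slc25a20 were left out by the same rule. This gave 47 genes of 47967 in the table, of which 38 had enough counts to be tested and 9 did not. RNA was sequenced from whole gastrocnemius, a mixed but mostly fast-twitch calf muscle, of male C57BL/6 mice aged 20 to 24 weeks. For 12 weeks the normal phosphate group (3 libraries) ate chow whose inorganic phosphate was 0.6% (0.9% in total), and the high phosphate group (3 libraries) chow whose inorganic phosphate was 2.0% (2.3% in total). The chows were alike in calcium (1.9%), sodium (0.9%), magnesium (0.3%) and potassium (1.8%), and the labels name no genetic change. Whether the libraries of a diet are different animals is not stated in the labels, so p-values measure only the spread between libraries, which may be technical.

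Mitochondrial carriers are small proteins of the inner mitochondrial membrane, built of repeated pairs of membrane-spanning helices, that let nucleotides, amino acids, organic acids, cofactors and ions cross a membrane that is otherwise closed to them. Many work as exchangers, and several use inorganic phosphate itself as the counter-substrate. In muscle the ADP/ATP exchanger is by far the best known, because it hands the ATP made in the matrix to the contractile apparatus. The uncoupling proteins belong to the same fold, and the founding member carries protons back into the matrix to make heat in brown fat.

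Each library held 21856006 to 27474251 counts, and the members took 0.481% to 0.709% of them. A level is given in CPM, the usual depth-scaled count, after TMM, a scaling that sets the typical gene equal between libraries. The 10 most abundant genes took 13% to 16.2% of counts on the normal diet and 21.5% to 24.0% on the high diet. The scaling therefore matters: TMM put the all-gene median log2 fold change at -0.016, dividing by library size alone put it at -0.49, and the authors' FPKM on the log2(FPKM + 1) scale put it at -0.29. A gene called higher here was higher relative to the typical gene. For the members, the value with library size alone stands beside each result whose call or direction it changed.

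The tissue label was checked against marker genes. All 6 skeletal muscle markers were tested and 5 were higher on high phosphate, with a summed level of 26655 to 39585 CPM against 71848 to 79043 CPM. Of 8 fast fibre markers 5 were higher and none lower (54150.0 to 77689 against 124660.0 to 169450.0 CPM), and of 7 slow fibre markers 6 were lower and none higher (2021 to 2941 against 825 to 1257 CPM). Most markers of other cells were lower on high phosphate. All 8 white adipocyte markers were lower (2348 to 2983 against 553 to 954 CPM), as were 9 of 10 macrophage markers, with 1 higher (1129.9 to 2163 against 405 to 597 CPM). All 6 fibroblast markers were lower (3773 to 8182 against 1902 to 2154 CPM), and so were all 6 endothelial markers (742 to 892 against 433 to 601 CPM). B and T cell markers, 6 in each list, were all lower. Of 4 erythroid markers tested none was called, and the highest sum, 645 CPM, was in high phosphate library 2. No marker was at 0 in all 6 libraries. With library size alone 3 of the 8 fast fibre markers and 5 of the 6 skeletal muscle markers were higher, and none was lower. In whole muscle, fewer cells of a type and less RNA per cell cannot be told apart.

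On the high phosphate diet, 15 of the 38 tested members were higher and 6 were lower at an adjusted p under 0.05 by edgeR's quasi-likelihood test, and 17 were not called. The backdrop was broad: of all 15347 genes tested, 49.3% were called, 23.0% higher and 26.3% lower. The members' median log2 fold change was 0.32, beside -0.016 for all genes. The 2 diets' libraries did not overlap in CPM for 29 of the 38 members, where 62.4% of all tested genes had no overlap. With library size alone, 7 members were higher and 11 lower (5.72% and 51.4% of all genes), and with the authors' FPKM 4 were higher and 10 lower (4.68% and 36.8% of all genes). The 4 members called higher under all count scalings and with log2(FPKM + 1) were Ucp3, Slc25a25, Slc25a30 and Slc25a33; when every gene with an FPKM above 0 was tested, Slc25a30 was not called (0.53, adjusted p = 0.0704). All 6 lower members, Slc25a5, Slc25a10, Slc25a17, Slc25a24, Slc25a45 and Slc25a53, were also called lower in each of those fits. The white adipocyte, macrophage, fibroblast, endothelial, B cell, T cell and slow fibre lists were all or mostly lower alongside them, as given above. Their part in these 6 results was not tested. The skeletal muscle and fast fibre lists were mostly higher, with median log2 fold changes of 1.18 and 0.99. The part of these 2 lists in the 15 higher results and in the members' median was not tested. Leaving out any 1 library kept the call of 11 higher and 4 lower members; the other 6, Slc25a4, Slc25a12, Slc25a34, Slc25a37, Slc25a17 and Slc25a53, are given with their values below.

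**Figure D1:**
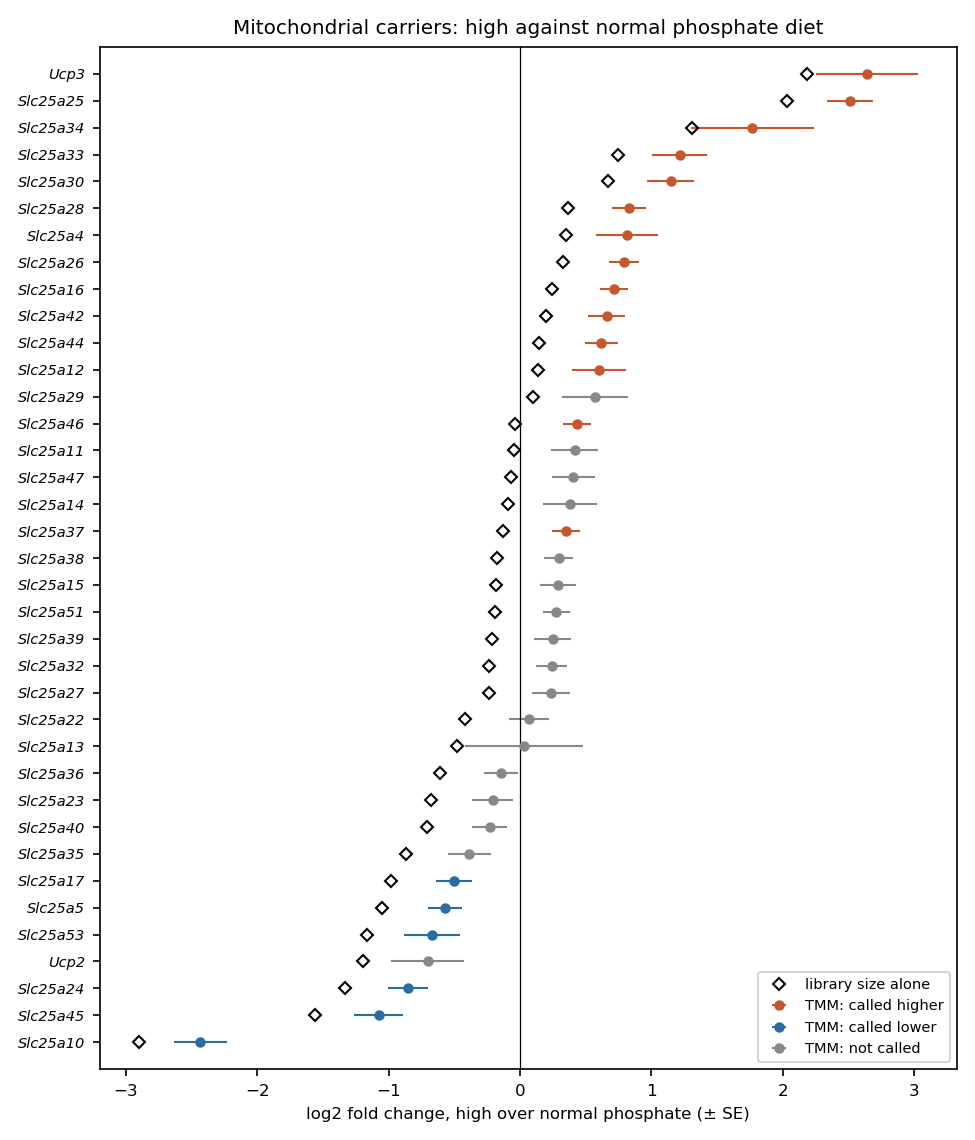
Fitted log2 fold change of the tested members reported here, high over normal phosphate, with its standard error (filled points, coloured by call) and the value with library size alone (open diamonds), on the horizontal axis. Ucp3 (2.64) and Slc25a25 (2.51) lie farthest right and Slc25a10 (-2.43) farthest left, and the diamonds sit to the left of the filled points.

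**Figure D2:**
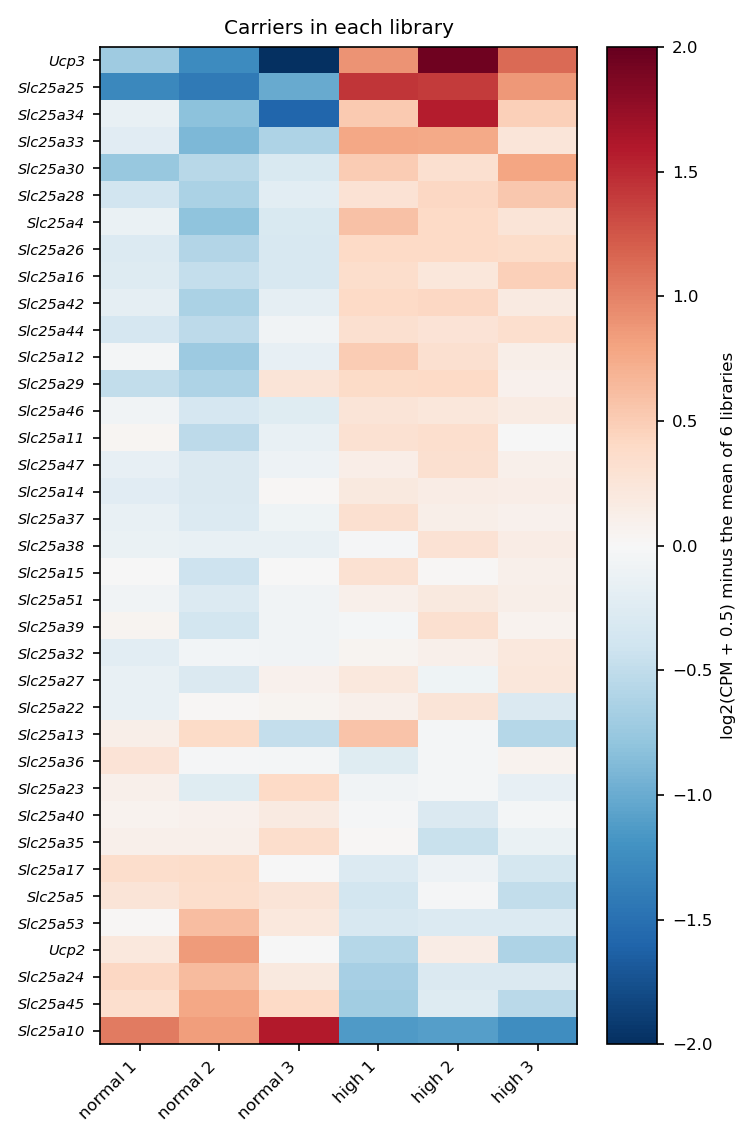
Level of the tested members reported here in each of the 6 libraries, as log2(CPM + 0.5) minus the member's mean over the libraries, with colours limited to 2 units either way. Rows are in order of fold change, so the top rows are high in the 3 high phosphate libraries and the bottom rows are high in the 3 normal phosphate libraries.

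Levels of different genes were compared per length, in the authors' FPKM. Slc25a4 stood far above every other member, at 2100.4 ± 336 FPKM (SD, n = 3) on the normal diet and 2622 ± 259.7 FPKM on the high diet, and it held 63.2% to 72.7% of the members' counts in each library. On the normal diet Slc25a11 (131 ± 14.7 FPKM) and Slc25a12 (68.6 ± 15.1 FPKM) came next, followed by Slc25a5 (58.8 ± 7.46 FPKM) and Slc25a36 (47.2 ± 14.9 FPKM). Ucp3 was seventh there, at 24.2 ± 9.20 FPKM, and on the high diet reached 113 ± 47.4 FPKM, a level between those of Slc25a12 (79.9 ± 32.6 FPKM) and Slc25a11 (127 ± 14.2 FPKM). Slc25a10 went the other way in the order, from 18.7 ± 3.42 to 2.97 ± 0.335 FPKM.

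**Figure D3:**
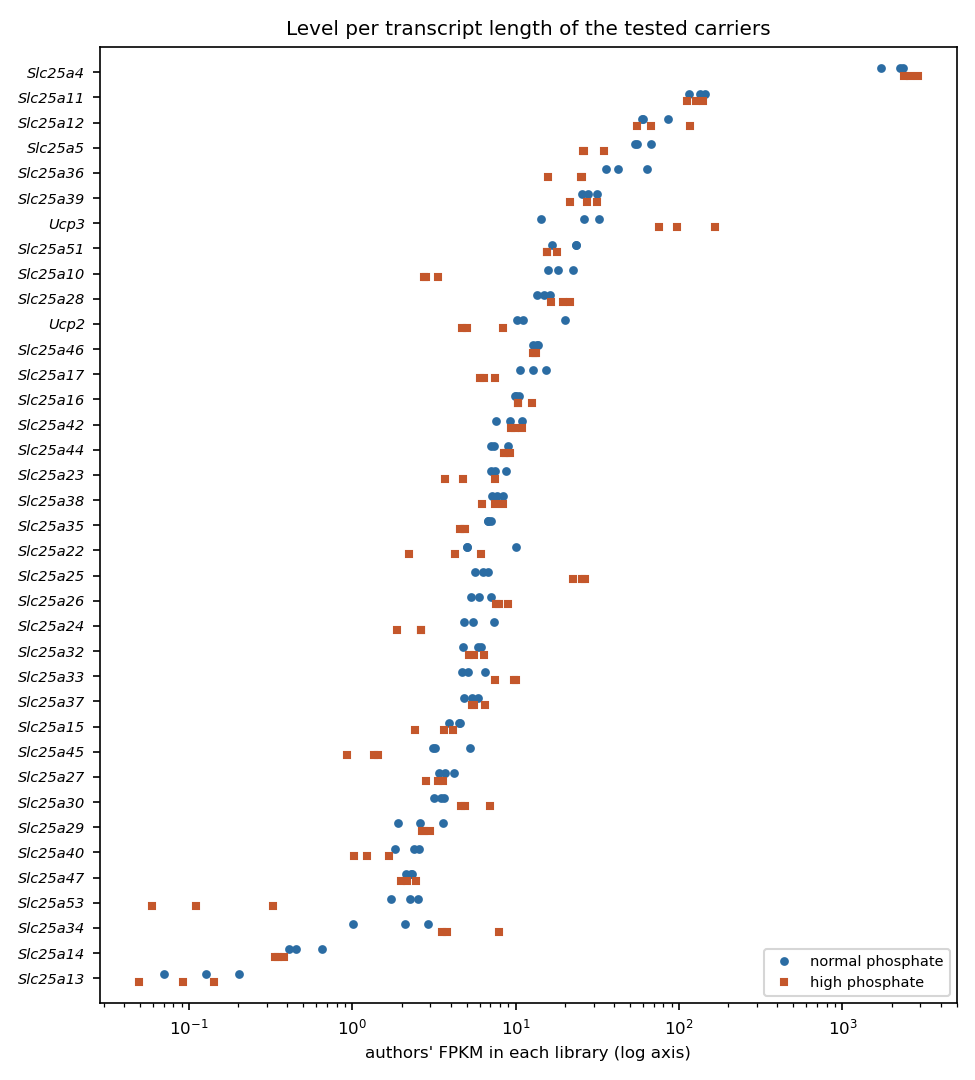
The authors' FPKM of the tested members reported here in each library, on a log axis, with members ordered by their mean on the normal diet (circles, normal phosphate; squares, high phosphate). Slc25a4 is the highest member in every library, and Ucp3 moves from the middle of the upper group to the level of Slc25a11.

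Among the uncoupling proteins and their nearest relatives, 2 of 5 tested members rose, Ucp3 and Slc25a30, and none was called lower. Of all genes tested, 23.0% were called higher and 26.3% lower. Ucp3 was at 93.3, 64.0 and 38.1 CPM in normal phosphate libraries 1, 2 and 3 and at 287, 591 and 338 CPM in high phosphate libraries 1, 2 and 3. Ucp3 is the uncoupling protein of skeletal muscle and brown fat, and its expression is known to follow fatty acid supply. Every high phosphate library lay above every normal one, with library 2 highest, and the means were 65.1 ± 27.6 and 405 ± 162 CPM (SD, n = 3). The rise was 6.23-fold (log2 2.64 ± 0.39, SE; edgeR adjusted p = 0.00166), and the gene was called higher in every alternative. Both genes of the pair Ucp3 and Ucp2 lie on the plus strand of chromosome 7 (GRCm38), Ucp3 at chr7:100472990-100486432 and Ucp2 at chr7:100493337-100502020, 6.9 kb apart.

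Its neighbour Ucp2 was not called. Counts of Ucp2, which is found in many cell types, immune cells among them, came to 52.8, 82.5 and 45.2 CPM on the normal diet and 30.7, 50.5 and 29.7 CPM on the high diet. The groups overlapped, and the log2 fold change of -0.70 ± 0.28 had an adjusted p of 0.0695 (edgeR). With library size alone the value was -1.20 (adjusted p = 0.0137), which passed the threshold, and without normal phosphate replicate 3 or high phosphate replicate 2 it was -0.88 (adjusted p = 0.0436) and -0.98 (adjusted p = 0.0186). It was also called lower with DESeq2 (-0.69, adjusted p = 0.0229), limma-voom (-0.70, adjusted p = 0.04999), the replicate block (-0.70, adjusted p = 0.00170) and log2(FPKM + 1) (-1.05, adjusted p = 0.0308), so 8 of the alternatives passed the threshold with log2(FPKM + 0.1) included. The summed macrophage, fibroblast, endothelial, B cell and T cell markers were each highest in normal phosphate library 2, as Ucp2 was. The white adipocyte and slow fibre sums were highest in normal phosphate library 3, and the erythroid and brown adipocyte sums in high phosphate library 2. The skeletal muscle and fast fibre sums were highest in high phosphate library 1. The part of any of these cells in the level of Ucp2 was not tested. Within a library, the ratio of Ucp3 to Ucp2 counts was 1.77, 0.776 and 0.842 on the normal diet and 9.35, 11.7 and 11.4 on the high diet.

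The stretches upstream of the 2 neighbours, printed because the genes sit side by side and had different values, each run from 250 to 31 bases before the RefSeq start (GRCm38.p6, plus strand, Ucp3 at chr7:100472741-100472960 and Ucp2 at chr7:100493108-100493327), 5′ to 3′, with capitals for matches to any of 6 motifs searched on both strands.
Ucp3: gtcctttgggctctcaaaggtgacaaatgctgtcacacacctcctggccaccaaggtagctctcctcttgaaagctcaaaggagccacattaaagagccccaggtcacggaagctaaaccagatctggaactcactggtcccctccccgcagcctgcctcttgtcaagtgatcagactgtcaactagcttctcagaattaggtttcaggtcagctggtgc
Ucp2: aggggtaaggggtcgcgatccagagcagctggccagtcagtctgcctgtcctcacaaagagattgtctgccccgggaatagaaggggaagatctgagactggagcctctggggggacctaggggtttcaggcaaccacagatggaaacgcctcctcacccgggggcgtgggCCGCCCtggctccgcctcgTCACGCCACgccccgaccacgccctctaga
The motifs were the E-box CACGTG, the cyclic AMP response element TGACGTCA, the estrogen-related receptor element TCAAGGTCA, the CCAAT box, the GC box GGGCGG and the sterol regulatory element TCACNCCAC. They do not overlap one another in these windows. The Ucp3 stretch held none of them, and the Ucp2 stretch held a GC box and a sterol regulatory element. Of all 32851 RefSeq promoters, searched over the whole 250 bases before the start, 32.7% held the GC box and 1.05% the sterol regulatory element. A RefSeq promoter was found for 36 of the 47 members (46 promoters in all), and 2 of the 46 held the sterol regulatory element and 30 the GC box. A match is a match of letters only.

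The remaining relatives were less abundant. For Slc25a30, a kidney-named relative of the uncoupling proteins, the normal phosphate libraries held 4.75, 5.56 and 6.66 CPM and the high phosphate libraries 12.1, 10.5 and 14.9 CPM. All high phosphate libraries were above all normal ones, and Slc25a30 rose 2.21-fold (log2 1.15 ± 0.18, adjusted p = 0.00134, edgeR). Slc25a14 and Slc25a27, both uncoupling-protein relatives first described in brain, had log2 fold changes of 0.38 ± 0.20 and 0.24 ± 0.14 (adjusted p = 0.150 and 0.198) and library size alone made both negative (-0.095 and -0.24). Ucp1, the uncoupling protein of brown fat, had 0, 1 and 0 counts in the normal phosphate libraries and 0, 0 and 1 in the high ones, too few to test. Of the brown adipocyte markers 5 of 8 were tested, with 1 higher (Zic1) and 2 lower (Dio2 and Ebf2). Zic1 was low and its diets overlapped, with 7, 7 and 19 counts on the normal diet and 47, 18 and 13 on the high diet. With library size alone 0 were higher and 3 lower. Elovl3, too low to test, had 3, 1 and 2 counts on the normal diet and 0 in all 3 high phosphate libraries.

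**Figure D4:**
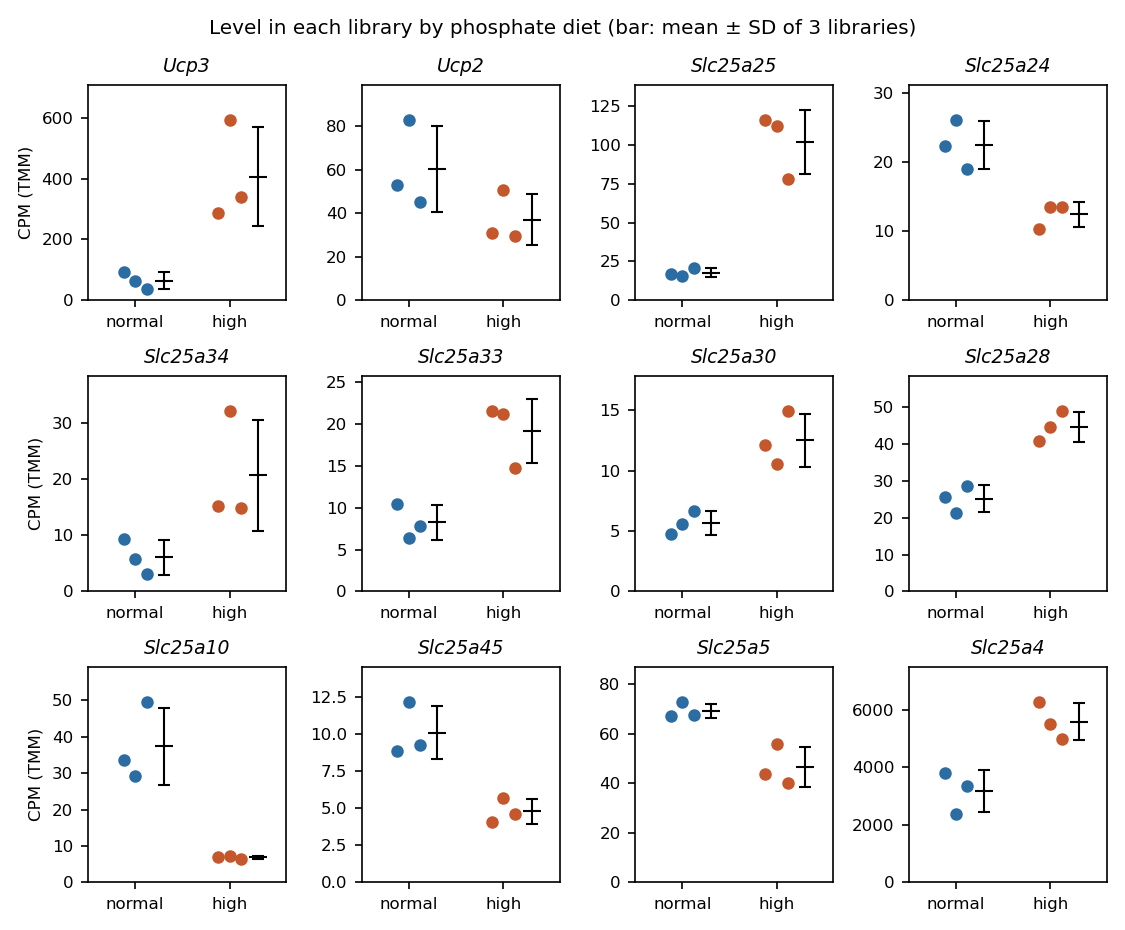
CPM of 12 members in each library by diet (points) with the mean and SD of 3 libraries (bar), each panel starting at 0. The diets do not overlap in 11 panels, all of called members, and they do in that of Ucp2, which was not called. Among all genes tested, 62.4% had no overlap.

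Of the ADP/ATP exchangers, the muscle isoform rose and the isoform of dividing cells fell, where 49.3% of all genes tested were called. Slc25a4 was at 3782, 2369.7 and 3356 CPM in normal phosphate libraries 1, 2 and 3 and at 6245, 5504 and 4966 CPM in high phosphate libraries 1, 2 and 3. Slc25a4, at chr8:46206797-46211284 on the minus strand, encodes the heart and muscle ADP/ATP exchanger. All 3 high phosphate libraries were above the normal ones, and the mean went from 3169 ± 725 to 5572 ± 643 CPM, a 1.76-fold rise (log2 0.81 ± 0.23, edgeR adjusted p = 0.0181). The rise was not called with library size alone (0.35, adjusted p = 0.0790), nor without high phosphate replicate 1 (0.74, adjusted p = 0.0619) or 2 (0.84, adjusted p = 0.0510). With log2(FPKM + 1) it was 0.33 and not called. Of 6 skeletal muscle markers 5 also rose, and their part in the result was not tested. Counts of Slc25a5, the widely expressed isoform, came to 67.4, 72.6 and 67.6 CPM on the normal diet and 43.9, 55.8 and 40.1 CPM on the high diet. Here the groups were apart in the other direction, and Slc25a5 differed by -0.57 ± 0.13 in log2 (adjusted p = 0.00644, edgeR). Of its 50-base words, 33.8% also occur elsewhere among annotated transcripts, Gm5560 among them, so its count may be affected by shared reads. Slc25a4 exceeded Slc25a5 by 56.1, 32.6 and 49.6-fold in counts on the normal diet and by 142, 98.5 and 124-fold on the high diet. Slc25a31, the testis isoform, had 1, 2 and 0 counts on the normal diet and 0, 1 and 0 on the high diet.

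The carriers that exchange ATP-magnesium for phosphate, most of them calcium-regulated, set the adenine nucleotide pool of the matrix. Of 3 tested, 1 rose and 1 fell, where 23.0% of all genes were called higher and 26.3% lower. For Slc25a25, the normal phosphate libraries held 17.1, 15.6 and 20.9 CPM and the high phosphate libraries 116, 112 and 78.0 CPM. Slc25a25, at chr2:32414487-32451445 on the minus strand, had the smallest adjusted p of all members. No libraries overlapped, the means were 17.9 ± 2.73 and 102 ± 20.7 CPM (SD, n = 3), and the 5.70-fold rise (log2 2.51 ± 0.18) had an edgeR adjusted p of 0.000117. Counts of Slc25a24, a more widely expressed paralog, came to 22.3, 26.0 and 19.0 CPM on the normal diet and 10.4, 13.6 and 13.4 CPM on the high diet. All normal libraries were above all high ones, and Slc25a24 fell by 0.85 on the log2 scale (SE 0.15, edgeR adjusted p = 0.00231). For Slc25a23, the third paralog, the normal phosphate libraries held 27.1, 21.3 and 33.5 CPM and the high phosphate libraries 24.0, 24.4 and 22.5 CPM. These overlapped (log2 -0.21 ± 0.16, adjusted p = 0.287), though the value passed as lower with library size alone (-0.67, adjusted p = 0.00467) and without normal phosphate replicate 2 (-0.36, adjusted p = 0.0348). Slc25a41 had 2 counts in 1 normal library and 0 in the other 5. The ratio of Slc25a25 to Slc25a24 counts went from 0.766, 0.602 and 1.10 to 11.1, 8.25 and 5.79.

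RefSeq gives Slc25a25 3 starts, and gene counts do not say which was used. The stretch before the third start (GRCm38.p6, minus strand, chr2:32424097-32424316, 250 to 31 bases before the start, 5′ to 3′) is printed because it holds a full cyclic AMP response element, TGACGTCA, at -150 from the start, with a CCAAT box (ATTGG on this strand) and a GC box behind it, all in capitals.
Slc25a25: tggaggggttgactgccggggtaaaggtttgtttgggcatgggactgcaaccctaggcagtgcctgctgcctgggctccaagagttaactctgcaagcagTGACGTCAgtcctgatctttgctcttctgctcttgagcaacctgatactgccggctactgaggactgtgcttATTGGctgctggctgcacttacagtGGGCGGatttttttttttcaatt
The cyclic AMP response element was found in 2 of the 46 member promoters and in 1.55% of all 32851, the CCAAT box in 20 of 46 and 33.9%, and the E-box in 7 of 46 and 6.02%. The estrogen-related receptor element was in none of the 46 and in 0.387% of all.

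Among the amino acid carriers, Slc25a12 and Slc25a44 rose, and the other tested members of the group, Slc25a13 and Slc25a22, were not called. The share called over all genes was 49.3%, with 23.0% higher. Slc25a12 was at 456, 283 and 416 CPM in normal phosphate libraries 1, 2 and 3 and at 663, 583 and 507 CPM in high phosphate libraries 1, 2 and 3. It encodes the calcium-activated aspartate/glutamate carrier of muscle and brain, part of the malate-aspartate shuttle that brings the electrons of NADH into the matrix. Groups were apart, and the gene rose by 0.60 ± 0.21 in log2 (edgeR adjusted p = 0.0364). The call rested on the scaling and on single libraries. Library size alone gave 0.14 (adjusted p = 0.444) and log2(FPKM + 1) gave 0.17, also not called. Leaving out normal phosphate replicate 3, high phosphate replicate 1 or high phosphate replicate 2 gave 0.66, 0.51 and 0.62 (adjusted p = 0.0574, 0.115 and 0.0811). Counts of Slc25a13, the liver-type isoform, came to 1.30, 1.67 and 0.696 CPM on the normal diet and 1.97, 1.12 and 0.623 CPM on the high diet. These values were low and overlapped (log2 0.032 ± 0.45, adjusted p = 0.959), and the sign turned with library size alone (-0.48). For Slc25a44, a carrier of branched-chain amino acids, the normal phosphate libraries held 30.4, 26.6 and 36.7 CPM and the high phosphate libraries 48.4, 46.8 and 48.5 CPM. No libraries overlapped, and Slc25a44 rose by 0.62 ± 0.12 in log2 (edgeR adjusted p = 0.00381), falling to 0.15 (adjusted p = 0.330) with library size alone. With log2(FPKM + 1) it was 0.16 and not called. Slc25a22, a glutamate carrier, had a log2 fold change of 0.067 ± 0.15 (adjusted p = 0.736), or -0.42 with library size alone.

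The dicarboxylate carrier had the largest fall of all members. For Slc25a10, the normal phosphate libraries held 33.5, 29.1 and 49.4 CPM and the high phosphate libraries 7.06, 7.18 and 6.49 CPM. Slc25a10, at chr11:120491840-120499187 on the plus strand, exchanges malate or succinate for phosphate and is abundant in liver and white fat. The means were 37.3 ± 10.7 and 6.91 ± 0.370 CPM (SD, n = 3), the groups were far apart, and the gene was lower by a log2 value of -2.43 ± 0.20 (edgeR adjusted p = 0.000184). It was called lower in every alternative. The white adipocyte markers moved the same way, 8 of 8 lower, with normal phosphate library 3 highest in their sum and in Slc25a10, and their part in the result was not tested. Counts of Slc25a11, the oxoglutarate/malate carrier that completes the malate-aspartate shuttle, came to 293, 198 and 255 CPM on the normal diet and 350.5, 361 and 283 CPM on the high diet. 1 high phosphate library, the third, lay within the normal range, and the log2 fold change of 0.42 ± 0.18 was not called (adjusted p = 0.0796), with -0.050 from library size alone. It was called higher without normal phosphate replicate 1 (0.55, adjusted p = 0.0367) and with DESeq2 (0.43, adjusted p = 0.0317).

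Of the 4 tested carriers of basic amino acids and their relatives, 1 fell and none rose, where 26.3% of all genes were lower. Slc25a45 was at 8.85, 12.2 and 9.30 CPM in normal phosphate libraries 1, 2 and 3 and at 4.08, 5.71 and 4.62 CPM in high phosphate libraries 1, 2 and 3. The diets did not overlap for Slc25a45, and it fell by 1.07 on the log2 scale (SE 0.19, edgeR adjusted p = 0.00199). Slc25a29, which carries basic amino acids in muscle, had 0.57 ± 0.25 (adjusted p = 0.0852) and was called higher without normal phosphate replicate 3 (0.92, adjusted p = 0.00546) and with no filter on low counts (0.59, adjusted p = 0.0331). Slc25a15, the ornithine carrier of the urea cycle, had 0.29 ± 0.14 (adjusted p = 0.113), and Slc25a47, named for its liver expression, 0.41 ± 0.17 (adjusted p = 0.0681), and scaling by library size alone made both negative (-0.18 and -0.066).

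None of the 3 glycine and glutathione carriers was called, where 49.3% of all genes tested were. Slc25a38, which brings in glycine for heme synthesis, had a log2 fold change of 0.29 ± 0.11 (adjusted p = 0.0555), and the glutathione carriers Slc25a39 and Slc25a40 had 0.25 ± 0.14 and -0.23 ± 0.14 (adjusted p = 0.163 and 0.182). With library size alone these were -0.18, -0.21 and -0.71, and the last passed as lower (adjusted p = 0.00510). Slc25a38 passed as higher without high phosphate replicate 1 (0.39, adjusted p = 0.0319) and with relative log expression size factors (0.31, adjusted p = 0.0473), and Slc25a40 as lower with log2(FPKM + 1) (-0.50, adjusted p = 0.0461).

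Of the 9 cofactor and nucleotide carriers, all tested, 5 were higher and 1 lower, where 49.3% of all genes were called. For Slc25a33, a pyrimidine nucleotide carrier, the normal phosphate libraries held 10.5, 6.41 and 7.87 CPM and the high phosphate libraries 21.5, 21.2 and 14.7 CPM. No libraries overlapped, and Slc25a33 rose 2.32-fold (log2 1.21 ± 0.21, edgeR adjusted p = 0.00202), and was called higher in every alternative. An antisense gene, Gm13068, overlaps 14.9% of its exons, and no source used here gives the strand setting of the counting. Counts of Slc25a36, the other pyrimidine nucleotide carrier, came to 97.0, 79.4 and 78.0 CPM on the normal diet and 67.6, 77.8 and 84.6 CPM on the high diet. These overlapped (log2 -0.15 ± 0.13, adjusted p = 0.367), while library size alone and FPKM called it lower (-0.61 and -1.05). For Slc25a42, which carries coenzyme A, the normal phosphate libraries held 35.8, 25.9 and 36 CPM and the high phosphate libraries 53.6, 54.5 and 46.4 CPM. The diets were apart (log2 0.66 ± 0.14, edgeR adjusted p = 0.00481), though library size alone gave 0.19 (adjusted p = 0.197). With log2(FPKM + 1) the value was 0.12 and not called. Counts of Slc25a51, the NAD carrier, came to 83.1, 71.6 and 82.7 CPM on the normal diet and 93.7, 99.4 and 94.6 CPM on the high diet. The groups did not overlap, yet the value of 0.28 ± 0.10 missed the threshold (adjusted p = 0.0523) and was -0.19 with library size alone. It passed as higher with relative log expression size factors (0.29, adjusted p = 0.0425) and with DESeq2 (0.29, adjusted p = 0.0299).

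Among the other cofactor carriers, Slc25a26, which imports S-adenosylmethionine for methylation in the matrix, rose (log2 0.79 ± 0.11, edgeR adjusted p = 0.000983) but was not called with FPKM (0.37, adjusted p = 0.0616). Slc25a16, linked to coenzyme A transport, rose by 0.72 ± 0.11 in log2 (edgeR adjusted p = 0.00111). It was not called with library size alone (0.24, adjusted p = 0.0883) or with log2(FPKM + 1) (0.12). Slc25a17 was at 26.3, 26.6 and 20.4 CPM in normal phosphate libraries 1, 2 and 3 and at 16.7, 19.1 and 15.9 CPM in high phosphate libraries 1, 2 and 3. Slc25a17 is a carrier of the peroxisome rather than the mitochondrion. It fell with no overlap (log2 -0.50 ± 0.13, edgeR adjusted p = 0.0128), and the call was lost without high phosphate replicate 3 (-0.44, adjusted p = 0.0577). Slc25a32, a folate and FAD carrier, had 0.24 ± 0.12 (adjusted p = 0.115), or -0.24 with library size alone.

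Both iron carriers rose, where 23.0% of all genes tested were called higher. For Slc25a28, the mitoferrin of non-erythroid cells, the normal phosphate libraries held 25.6, 21.3 and 28.7 CPM and the high phosphate libraries 40.8, 44.5 and 48.9 CPM. The diets were apart, and Slc25a28 rose by 0.83 ± 0.13 in log2 (edgeR adjusted p = 0.00135), with 0.34 from FPKM, which was not called (adjusted p = 0.0766). Counts of Slc25a37, the mitoferrin of red cell precursors, came to 32.6, 29.8 and 33.8 CPM on the normal diet and 45.1, 39.0 and 38.2 CPM on the high diet. These also did not overlap (log2 0.35 ± 0.11, edgeR adjusted p = 0.0227), but the direction turned with library size alone (-0.13). The call was lost without high phosphate replicate 1 (0.28, adjusted p = 0.0743) and with log2(FPKM + 1) (0.090). None of the 4 erythroid markers tested was called, but their sum varied from 102 to 645 CPM within the high diet. The part of erythroid cells in the level of Slc25a37 was not tested.

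The last group holds the outer membrane member and carriers without an assigned substrate, with 2 of 4 tested higher and 1 lower. Over all genes the shares were 23.0% higher and 26.3% lower. Slc25a34 was at 9.43, 5.70 and 3.15 CPM in normal phosphate libraries 1, 2 and 3 and at 15.3, 32.1 and 14.8 CPM in high phosphate libraries 1, 2 and 3. High phosphate library 2 was highest and normal phosphate library 3 lowest, as for Ucp3. Slc25a34 rose 3.40-fold (log2 1.77 ± 0.47, edgeR adjusted p = 0.0198), but the call was lost without normal phosphate replicate 2 (1.72, adjusted p = 0.114), with no filter on low counts (adjusted p = 0.101) and with FPKM (1.0, adjusted p = 0.0559). Counts of Slc25a53 came to 3.68, 5.77 and 4.25 CPM on the normal diet and 2.80, 2.90 and 2.91 CPM on the high diet. The diets did not overlap (log2 -0.67 ± 0.22, edgeR adjusted p = 0.0280). The call was lost without normal phosphate replicate 2 (-0.47) or any 1 high phosphate library (-0.64 to -0.67). The authors' FPKM gave a larger fall, from 2.16 ± 0.408 to 0.164 ± 0.141 FPKM, with -1.44 on the log2(FPKM + 1) scale and -3.21 on the log2(FPKM + 0.1) scale. Slc25a46, an outer membrane protein tied to mitochondrial shape, rose by 0.43 ± 0.11 (edgeR adjusted p = 0.00881) but gave -0.039 with library size alone and -0.022 with FPKM. Slc25a35 had -0.39 ± 0.17 (adjusted p = 0.0805) and passed as lower with library size alone (-0.87) and with FPKM (-0.46). On the other strand Rangrf overlaps 31.3% of its exons.

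The 9 members not tested were Ucp1, Slc25a2, Slc25a18, Slc25a21, Slc25a31, Slc25a41, Slc25a43, Slc25a48 and Slc25a54. None had more than 15 counts in any library, and no fold is given for them.

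Ratios of related members within a library do not depend on scaling between libraries, and each of 10 pairs was tested over the 6 libraries with exact permutation (two-sided), whose smallest possible p is 0.1 with 3 against 3. The pairs were chosen with earlier results of these data known, so the ratios describe them. In 6 pairs the diets did not overlap (exact p = 0.1, adjusted over the 10 pairs 0.167). The ratio was higher on high phosphate for Ucp3 to Ucp2 (10.2-fold), Slc25a25 to Slc25a24 (10.2-fold), Slc25a11 to Slc25a10 (7.06-fold), Slc25a4 to Slc25a5 (2.67-fold) and Slc25a33 to Slc25a36 (2.57-fold). For Slc25a37 to Slc25a28 it was lower, with a log2 difference of -0.49 and ratios of 1.27, 1.4 and 1.18 against 1.11, 0.876 and 0.782. The diets overlapped for the pairs of Slc25a12 to Slc25a13 (exact p = 0.5), Slc25a23 to Slc25a24, Slc25a39 to Slc25a40 and Slc25a22 to Slc25a18 (exact p = 0.2 each).

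**Figure D5:**
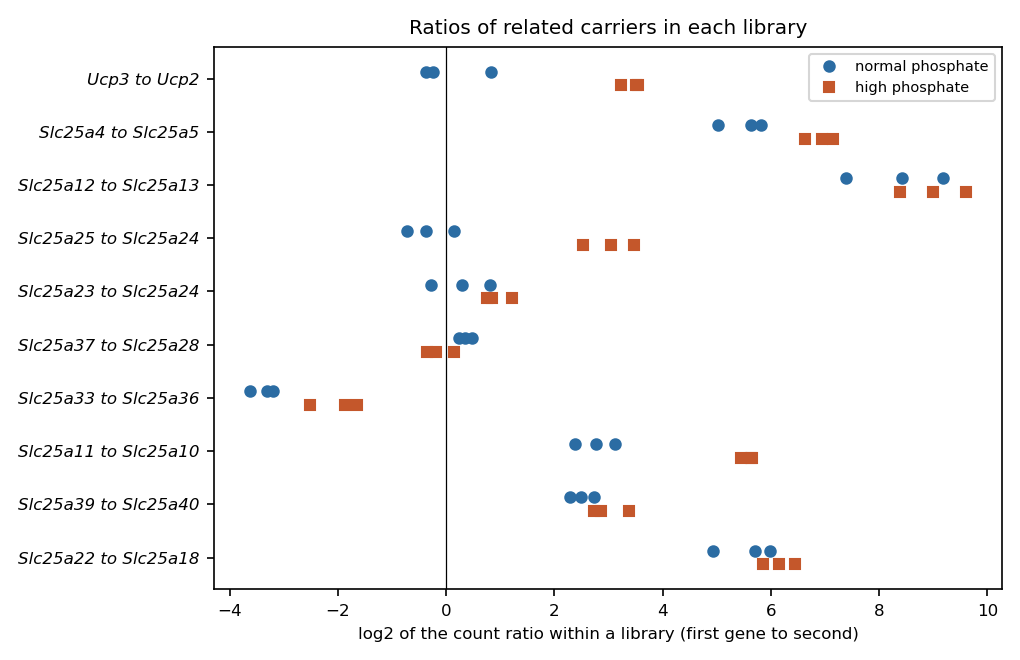
log2 of the count ratio of 10 pairs of related members within each library (circles, normal phosphate; squares, high phosphate). The squares lie right of the circles without overlap in 5 pairs and left of them in 1, Slc25a37 to Slc25a28.

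Other genes of mitochondrial membrane transport gave 8 higher and 5 lower of 24 tested, with a median log2 fold change of 0.27. Of all genes tested, 23.0% were higher and 26.3% lower. Under library size alone none was higher and 9 were lower (median -0.20), and with FPKM none was higher and 8 were lower. Over all genes, 5.72% were higher and 51.4% lower with library size alone, and 4.68% and 36.8% with FPKM. All 3 voltage-dependent channels of the outer membrane rose, Vdac1 by 0.68, Vdac2 by 0.63 and Vdac3 by 0.58 on the log2 scale, and were at 0.21, 0.17 and 0.11 with library size alone, which did not pass. Micu3, Letm1, Abcb8 and Abcb10 were also among those higher, and the last turned to -0.050 with library size alone, as Letm1 did with FPKM (-0.24). Micu3, Letm1 and Abcb8, scaled by library size alone, were at 0.12, 0.056 and 0.13 and were not called. The serine carriers and relatives Sfxn1, Sfxn2 and Sfxn3 fell, Sfxn1 by 1.55, as did Mtch1 and Slc8b1, the mitochondrial sodium/calcium exchanger, and all 5 were also called lower with library size alone and with FPKM. Neither pyruvate carrier subunit was called, with Mpc1 at 0.36 and Mpc2 at 0.20, or -0.095 and -0.26 with library size alone.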

How the data were processed

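Whole gastrocnemius RNA was extracted with TRIzol, per the labels' protocols. The submitters' processing notes name Trim Galore 0.4.1, HISAT2 2.0.1, featureCounts 1.4.6, DESeq2 1.6.3 and GRCm38/mm10, without roles. For the annotation release, the strand setting and the FPKM tool, a statement was not given in the sources used here. The authors deposited raw counts per gene (47967 genes) and a table of FPKM (38011 genes).

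From the counts, edgeR 4.0.16 (R 4.3.3; filterByExpr, TMM, robust quasi-likelihood F test, no covariate) was fitted on all 6 libraries, and p-values were adjusted by Benjamini-Hochberg over 15347 genes, with 0.05 as threshold. The SE is the log2 fold change divided by the root of F, an approximation. FPKM was tested with limma 3.58.1 on log2(FPKM + 1), which understates changes of low genes. Ratios used counts plus 0.5. At 1 CPM a library held 21.9 to 27.5 counts, which limits precision for low members. On simulated counts with the spread of these libraries (15347 genes, 200 changed) the fit recovered 19.4%, 65.7% and 92.4% of 1.5-, 2- and 4-fold changes. It made 13 false calls among 131. In the data 49.3% of genes were called, and the mean TMM factor was 1.18 on the normal and 0.849 on the high diet. The simulation held neither feature, so its rates do not give the recovery or the false calls in these data.

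Values in every library are given for the called members with a mean of at least 1 CPM among the 6 largest increases or decreases and for 20 members listed by name; others are given by role. The members, lists, pairs and role groups were chosen with earlier results of these data known, and the motifs and printed promoters after the values were seen. Positions and overlaps are from GENCODE M21 (GRCm38) and promoters from RefSeq (GRCm38.p6). Alternatives were other scalings and filters, DESeq2 1.42.0, limma-voom, a replicate block, FPKM and leaving out each library. Counts cover all members and list genes, of which some are not reported here by name.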

Additional observations from a re-analysis of the deposited data

How the results depend on the processing

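Relative log expression size factors, TMM without the 50 most abundant genes, both other filters on counts, DESeq2, limma-voom and the replicate block kept the counts of members called within 1.5 times the values reported. With library size alone, 7 members were higher and 11 lower, the median was -0.15, and the sign turned for Slc25a13 -0.48, Slc25a22 -0.42, Slc25a39 -0.21, Slc25a11 -0.050, Slc25a37 -0.13, Slc25a51 -0.19, Slc25a27 -0.24, Slc25a32 -0.24, Slc25a15 -0.18, Slc25a47 -0.066, Slc25a46 -0.039, Slc25a14 -0.095, Slc25a38 -0.18. With log2(FPKM + 1), 4 were higher and 10 lower, the median was -0.048, and the sign turned for Slc25a13 -0.049, Slc25a22 -0.57, Slc25a39 -0.082, Slc25a11 -0.047, Slc25a51 -0.34, Slc25a27 -0.16, Slc25a15 -0.29, Slc25a47 -0.025, Slc25a46 -0.022, Slc25a14 -0.15, Slc25a38 -0.071. With log2(FPKM + 0.1), 5 were higher and 10 lower, the median was -0.064, and the sign turned for Slc25a13 -0.25, Slc25a22 -0.69, Slc25a39 -0.085, Slc25a11 -0.047, Slc25a51 -0.36, Slc25a27 -0.20, Slc25a15 -0.37, Slc25a47 -0.035, Slc25a46 -0.023, Slc25a14 -0.39, Slc25a38 -0.081. With log2(FPKM + 1) for every gene above 0, 10 were called, 3 of them higher, the median was -0.025, and the values were those of log2(FPKM + 1). With limma-voom Slc25a13 had -0.013. The FPKM ratio of Slc25a22 to Slc25a18 differed by -0.23. Leaving out each library put the members' median at 0.29 to 0.38, Slc25a13 at -0.47 to 0.36 and Slc25a22 at -0.045 to 0.23, and called 18 to 22 members. The cause of these shifts was not tested.

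The replicate block called 22 members (15 higher, 7 lower; Ucp2 was added), and Slc25a13 had -0.013. Same-numbered libraries had correlations of -0.0137, 0.0245 and 0.0163 in their deviations, and not every library correlated best with its own number. With 3 libraries per diet these values cannot tell whether same-numbered libraries share a batch, and the titles give only the number. Over 646 pairs of a member and a setting, 51 turned sign; of the others, which kept theirs, 49 lost a call and 28 gained one.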
